A study of Mus musculus with 20 samples.

Results

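Sox2 and Sox2KE were compared in mouse embryonic stem (ES) cells by chromatin immunoprecipitation and sequencing, which maps where a protein sits on the genome. Sox2KE is Sox2 with a lysine exchanged for a glutamate. The comparison rests on 4 of the 20 samples of the series, 2 libraries of Sox2 (replicates A and B) and 2 of Sox2KE (replicates A and B). They were chosen by protein and cell type from the sample labels, and not by any measured value. All 4 came from KH2 cells, an ES line built to carry a doxycycline-inducible transgene, and all were given doxycycline at 1 µg/ml to induce a V5-tagged protein. The antibody was against V5, so that the tagged protein was pulled down in a line whose culture conditions were those of self-renewing ES cells. Each protein was read in its own induced line, so protein and line cannot be told apart. The labels do not state that replicates A and B were separate cultures. Peak lists cannot show the exchanged residue itself, and the levels of the 2 tagged proteins were not analysed here.

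Sox2 is an HMG-box protein that bends DNA, and in ES cells it binds next to the POU-domain protein Oct4 on composite elements that keep pluripotency genes active. Sox17 has a closely related HMG box and works with Oct4 in primitive endoderm, where it prefers a composite element with closer spacing. The residue exchanged in Sox2KE lies on the face of the HMG box that meets the POU domain, where Sox2 has a lysine and Sox17 a glutamate. The other 14 peak lists of the series served as annotation. They were 7 Oct4 lists from ES lines carrying Sox2, Sox2KE, Sox17EK (Sox17 with the reverse exchange) or Sox17, 4 lists of Sox17EK and Sox17 in ES cells, and 3 lists from F9 embryonal carcinoma cells. All of these ES libraries were also from cells given doxycycline at 1 µg/ml. The F9 lists were Oct4 in untreated cells, and Oct4 and Sox17 in cells given 1 µM retinoic acid (F9+RA), which moves F9 cells towards primitive endoderm. The Oct4 libraries of ES lines name the V5 antibody beside the Oct4 antibody, so an Oct4 peak in the Sox2 or Sox2KE line may include signal of the tagged protein. The F9 lists carry no such link to the proteins compared.

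The lists of Sox2 replicates A and B held 32226 and 23924 peaks, and those of Sox2KE replicates A and B held 33123 and 71693. Each peak carries a score from the authors, by which the peaks of a list were ranked. Read depth was unknown, so lists were compared by their 23924 strongest peaks, the length of the shortest list. A peak counted as matched where intervals overlapped by at least 1 bp. The weakest peak kept scored 64 and 50 in the Sox2 lists and 67.3 and 212.07 in the Sox2KE lists, and the strongest peak left out scored 64 in Sox2 replicate A and 67.3 and 212.06 in Sox2KE replicates A and B. Sox2KE replicate B stood apart in length, score and width. Its peaks among the 23924 strongest had a median width of 1074 bp, against 576 and 601 bp in the Sox2 lists and 648 bp in Sox2KE replicate A. Shares of sites that moved by over 1.5 times when they were recomputed without a library are given both ways, while the groups by strength and the named regions were formed with all 4 libraries.

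The strongest sites of the 2 proteins were ordered differently, although most of them were bound by both. Among the 1000 strongest peaks of each list, the Sox2 replicates shared 71.7% and the Sox2KE replicates 58.6%, each the mean of both directions, whereas the 4 pairs of a Sox2 with a Sox2KE list shared 34.2% to 44.5% (38.9% ± 4.50, SD over the 4 pairs). Both replicate pairs lay above all 4 pairs of different proteins. At the full 23924 peaks the Sox2 replicates shared 66.7%, the Sox2KE replicates 68.4% and the pairs of different proteins 47.7% to 53.8% (50.6% ± 2.71). The gap between replicate pairs and pairs of different proteins was 26.1 percentage points at 1000 peaks and 16.9 at 23924 peaks. The pairs reuse the same 4 libraries, so no test was made. Without Sox2KE replicate B the gap at 23924 peaks was 13.9 points, measured against the Sox2 replicates alone.

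Few of the strongest Sox2 sites were lost outright. Of the 1000 strongest peaks of Sox2 replicates A and B, 93.3% and 95.4% overlapped some peak in the whole list of Sox2KE replicate A, and 95.3% and 96.9% in that of Sox2KE replicate B. In the opposite direction, 99.1% and 97.3% of the 1000 strongest peaks of Sox2KE replicate A overlapped a peak of Sox2 replicates A and B, and 95.4% and 93.4% of those of Sox2KE replicate B did.

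Sharing fell with rank, both between replicates and between proteins. Of the Sox2 replicate A peaks ranked 1 to 2000, 99.9% were among the 23924 strongest of Sox2 replicate B, 84.1% among those of Sox2KE replicate A and 79.4% among those of Sox2KE replicate B. At ranks 10001 to 12000 these shares were 72.2%, 52.3% and 50%. At ranks 20001 to 22000 they were 35.4%, 33.8% and 33.5%, so that at the end of the Sox2 list replicates and proteins shared nearly alike. For Sox2 replicate B the first 2000 peaks gave 99.9%, 89.1% and 83.5%, so both Sox2 libraries lost more of their strong peaks in the mutant than in their own replicate. The first 2000 peaks of Sox2KE replicate A were found in its own replicate at 99.8% and in Sox2 replicates A and B at 95% and 94.5%. Those of Sox2KE replicate B gave 97.2%, 89.2% and 89.6%. The share found in neither whole list of the other protein rose from 6.7% to 22% between these ranks for Sox2 replicate A and from 1.65% to 32.9% for Sox2KE replicate A. For the B libraries it rose from 4.25% to 22.75% (Sox2) and from 4.6% to 40.45% (Sox2KE). Strong peaks of the mutant without any Sox2 peak were thus rare in Sox2KE replicate A, and they became more frequent further down both Sox2KE lists. Among the first 2000 peaks the mutant had the lower share in the A libraries and not in the B libraries. Sox2 peaks were sought in Sox2KE lists of 33123 and 71693 peaks, and Sox2KE peaks in Sox2 lists of 32226 and 23924. Absence was therefore easier to meet for Sox2KE peaks.

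**Figure D1:**
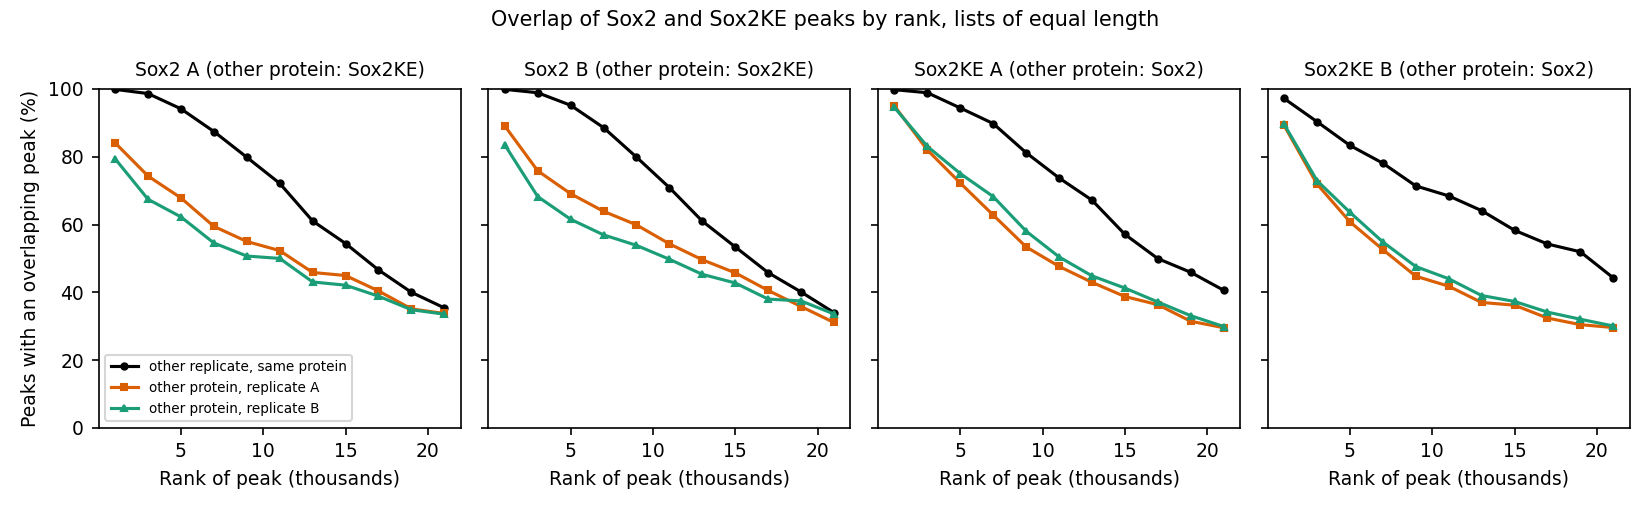
Share of peaks (%, vertical axis) that overlap one of the 23924 strongest peaks of another list, by rank of the peak (horizontal axis, each unit 1000 ranks), in a panel for each library. Lines stand for the own replicate and the 2 libraries of the other protein; for Sox2 replicate A at ranks 1 to 2000 they start at 99.9%, 84.1% and 79.4%, and the lines of the Sox2 libraries come together at the end of the lists, while in the Sox2KE libraries the own replicate stays above.

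Joining the 23924 strongest peaks of the 4 lists gave 44976 sites. A site was called Sox2-only where both Sox2 libraries had one of these peaks and no interval of either whole Sox2KE list overlapped it, Sox2KE-only in the reverse case, and shared where all 4 libraries had one. By this rule 2733 sites were Sox2-only (6.08% of all sites), 3689 were Sox2KE-only (8.2%) and 8179 were shared (18.2%). Shared sites made up 52.6% of the 15548 sites with both Sox2 libraries and 51.5% of the 15896 sites with both Sox2KE libraries. Sox2-only sites were 17.6% of the former, and Sox2KE-only sites were 23.2% of the latter. A further 18922 sites rested on 1 library. With absence read from the 23924 strongest peaks in place of the whole lists, 5020 sites were Sox2-only and 4336 Sox2KE-only. Which class was the larger therefore depended on the unequal length of the whole lists. Without Sox2KE replicate B, 4785 sites were Sox2-only, 7723 were Sox2KE-only and 9842 were shared.

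Sites of 1 protein were weaker than shared sites. In Sox2 replicates A and B the median rank of the peaks was 10764.5 and 11592 at Sox2-only sites and 6990.5 and 6676.5 at shared sites. In Sox2KE replicates A and B it was 13687 and 13173.5 at Sox2KE-only sites and 5697.25 and 6449 at shared sites. The median width was 646 bp for Sox2-only, 1019 bp for Sox2KE-only and 1169 bp for shared sites, and a wider site can overlap more peaks. The background of a share is its mean after the sites were moved 10 kb to either side. Over the 14 other lists it was 0.659% to 7.35% at Sox2-only, 1.23% to 12.1% at Sox2KE-only and 1.99% to 16.6% at shared sites. Exact 95% intervals cover counting error only, and since neighbouring sites are not replicates, shares of sites carry no test.

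The classes were also read in libraries that did not choose them. Among the 23924 strongest peaks of Sox2 replicate A, 9801 overlapped no peak of the whole list of Sox2KE replicate A. Of these, 49.9% recurred in the 23924 strongest of Sox2 replicate B and 10.6% had a peak in those of Sox2KE replicate B, against backgrounds of 2.85% and 3.84%. The 5522 such peaks chosen in the B libraries recurred at 54.9% in Sox2 replicate A and at 3.91% in Sox2KE replicate A (backgrounds 2.46% and 2.30%). In the opposite direction, 9761 Sox2KE peaks without any Sox2 peak, chosen in the A libraries, recurred at 55.7% in Sox2KE replicate B and at 20.9% in Sox2 replicate B (backgrounds 5.15% and 2.97%). The 12450 chosen in the B libraries recurred at 47.7% in Sox2KE replicate A and at 17.3% in Sox2 replicate A (backgrounds 4.85% and 3.95%). Within the 23924 strongest peaks the own protein had the higher share in all 4 readings. The other protein still had some of these sites above its background. Weaker peaks were not read here, which matters most for the long list of Sox2KE replicate B. Of the 23924 strongest Sox2 replicate A peaks, 49.0% overlapped its strongest peaks and 75.0% its whole list. Only 59.0% overlapped the whole list of Sox2KE replicate A. Many of the 9801 therefore had a weaker Sox2KE replicate B peak, and 10.6% understates its presence there. The 23924 strongest peaks are the whole list of Sox2 replicate B, but only part of the 71693 peaks of Sox2KE replicate B. The shares of 49.9% and 10.6% are thus not like measures. How many of the 9801 overlapped the whole list of Sox2KE replicate B was not counted, so this reading cannot show how far the proteins differ there. Peaks of a replicate that lay in the 23924 strongest of both proteins had a peak in the libraries of the other replicate at 76.1% to 87.9%.

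Oct4 peaks were more frequent in the line whose Sox protein was listed at a site. At Sox2-only sites, Oct4 replicates A and B of the Sox2 line had peaks at 98.5% and 76.0% of sites, and those of the Sox2KE line at 26.1% and 11.3%. Over all sites the same 4 lists had peaks at 78.6%, 52%, 69.7% and 52.4%. The Sox2KE line thus lay below its level over all sites in both libraries, and both were above their backgrounds of 4.90% and 3.26%. At 1364 Sox2-only sites (49.9%, against 6.99% of all sites) Oct4 was found in both libraries of the Sox2 line and in neither of the Sox2KE line. Oct4 was in all 4 libraries at 240 Sox2-only sites (8.78%, against 37.8% of all sites). Without Sox2KE replicate B in the choice of sites, the Sox2KE line had Oct4 peaks at 44.3% and 23.8% of Sox2-only sites, and all 4 libraries had Oct4 at 20.02%. Without Sox2 replicate B, Oct4 replicate B was at 49.0% of Sox2-only sites in the Sox2 line and 7.26% in the Sox2KE line. The pattern of both Sox2-line libraries and neither Sox2KE-line library then held at 32.5%, and Oct4 in all 4 libraries at 5.12%. In each of these choices the Sox2 line stayed above the Sox2KE line.

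Oct4 lists from outside the 2 lines had peaks at the Sox2-only sites as well. The 2 libraries of the Sox17EK line had Oct4 at 81.6% and 73.3% of them, against 65.1% and 53.8% of all sites. The Sox17 line had Oct4 at 56.1%, against 46.9% of all sites. In F9 cells, for which the labels name no transgene, Oct4 was at 61.5% of Sox2-only sites (59.7% to 63.3%, background 6.73%), against 56.4% of all sites. At 641 Sox2-only sites (23.5%) Oct4 was found in all 5 ES libraries outside the Sox2KE line and in F9 cells, and in neither library of the Sox2KE line. The same pattern held at 2.76% of all sites, and at 14.9% of Sox2-only sites chosen without Sox2 replicate B.

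At Sox2KE-only sites Oct4 was more frequent in the Sox2KE line. The mean share of the Sox2 line minus that of the Sox2KE line was -31.4 points there, against 68.5 at Sox2-only sites. The smaller distance depended on the length of the lists. With the 5000 strongest peaks the values were -70.8 and 70.0. Oct4 replicates A and B of the Sox2KE line had peaks at 90.4% and 66.9% of these sites, and those of the Sox2 line at 55.5% and 39.0%. All 4 libraries had Oct4 at 1377 sites (37.3%), close to the 37.8% of all sites, and at 24.6% of those chosen without Sox2KE replicate B. Both libraries of the Sox2KE line and neither of the Sox2 line had Oct4 at 611 sites (16.6%, against 3.35% of all sites), and at 8.32% of those chosen without Sox2KE replicate A. In the Sox17EK line Oct4 was at 49.2% and 40.3% of Sox2KE-only sites, in the Sox17 line at 37.7% and in F9 cells at 47.3%, each below its share over all sites. No peak of any of the 14 other lists lay on 6.40% of Sox2KE-only and 0.915% of Sox2-only sites, against 7.65% of all sites. These shares were 17.5% of Sox2KE-only sites without Sox2KE replicate B, and 7.10% and 9.65% of Sox2-only sites without Sox2 replicate A and B. Shared sites had Oct4 in replicates A and B of the Sox2 line at 97.5% and 77.9% and of the Sox2KE line at 97.3% and 87.6%.

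**Figure D2:**
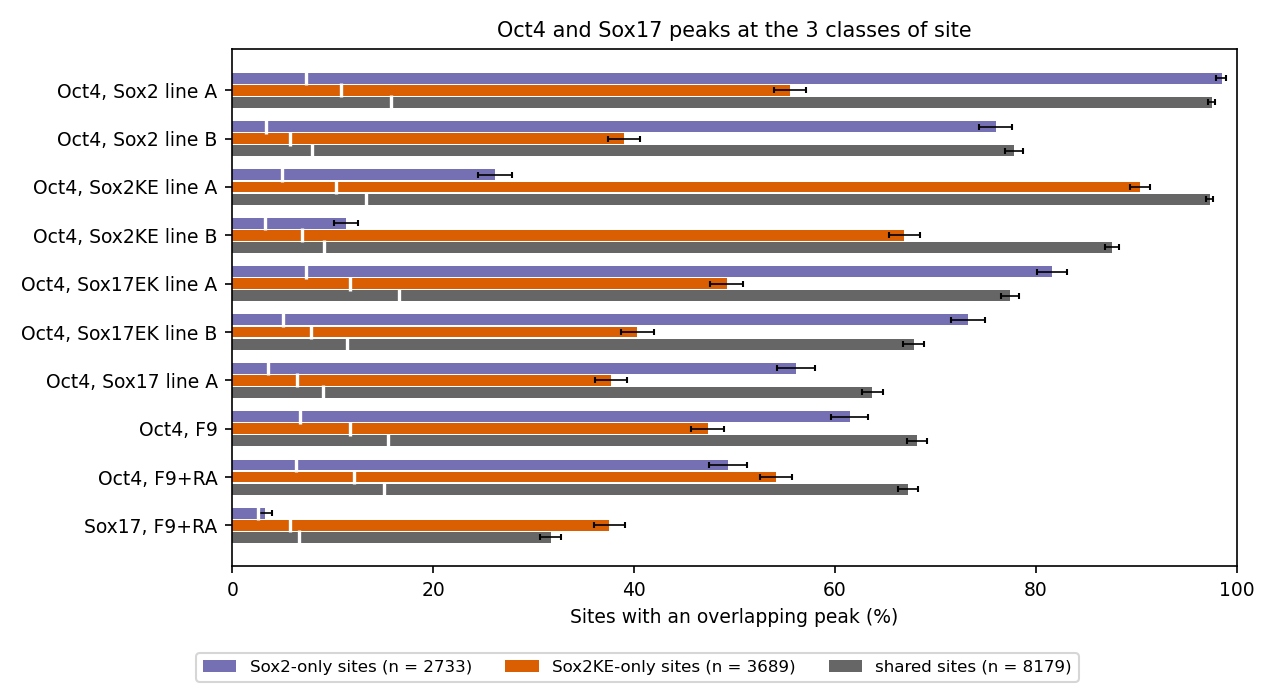
Share of sites (%, horizontal axis) with an overlapping peak of the 7 Oct4 lists of ES lines and the 3 F9 lists (vertical axis), as bars for Sox2-only, Sox2KE-only and shared sites, with whiskers for exact 95% intervals (counting error only) and a white tick at the background of sites moved 10 kb. The classes lie far apart in the Oct4 lists of the Sox2KE line (26.1% and 90.4% in replicate A) and in the Sox17 F9+RA list (3.26% and 37.5%).

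The endoderm lists separated the classes in another way. Sox17 of F9+RA cells, read with a Sox17 antibody and with no transgene named in the labels, had peaks at 3.26% of Sox2-only sites (2.62% to 3.99%), close to the background of 2.56%. It had peaks at 37.5% of Sox2KE-only sites (36.0% to 39.1%, background 5.71%) and at 31.7% of shared sites (background 6.65%), against 24.6% of all sites. With the stricter match of midpoints within 200 bp, the shares were 1.68%, 23.1% and 17.5%. Without Sox2KE replicate B they were 7.23% at Sox2-only, 24.3% at Sox2KE-only and 26.2% at shared sites, so the Sox2-only share was more than 1.5 times higher and the difference between the classes smaller. Sox2KE-only sites lay above shared sites in the main choice and below them without Sox2KE replicate B.

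Whole libraries showed the same direction without any choice of sites. Among the 23924 strongest peaks, 17.2% and 18.7% of Sox2 replicates A and B had a Sox17 F9+RA peak, and 25.4% and 39.0% of Sox2KE replicates A and B did, with backgrounds of 3.63% to 6.15%. Both Sox2KE libraries were above both Sox2 libraries, with means of 32.2% ± 9.63 and 17.9% ± 1.11 (SD, n = 2 each) and a difference, Sox2 minus Sox2KE, of -14.3 percentage points. The exact two-sided permutation test over the 4 libraries gave p = 0.33, the smallest it can give with 2 against 2, and an adjusted p of 1 over the 3 lists tested (Benjamini-Hochberg). With midpoints within 200 bp the shares were 11.1% and 12.3% for Sox2 and 16.6% and 23.0% for Sox2KE. Sox2KE replicate B was the highest of the 4, and without it the difference was -7.47 points.

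Oct4 of F9 cells separated the libraries at some list lengths and not at others. At 23924 peaks it had peaks at 57.7% and 62.5% of the strongest Sox2 peaks and at 54.0% and 65.4% of the Sox2KE peaks, so the groups overlapped (exact two-sided permutation p = 1, adjusted p = 1). Oct4 of F9+RA cells had peaks at 52.6% and 57.6% of the Sox2 peaks and 54.1% and 66.9% of the Sox2KE peaks, and these groups overlapped too (exact two-sided permutation p = 0.667, adjusted p = 1). Among the 5000 strongest peaks, Oct4 of F9 cells was at 71.6% and 76.7% for Sox2 and 57.3% and 70.3% for Sox2KE. In the whole lists it was at 53.5% and 62.5% for Sox2 and 51.3% and 44.7% for Sox2KE. In both of these choices the Sox2 libraries lay above the Sox2KE libraries (exact two-sided permutation p = 0.33 each, the smallest possible). The direction of both differences changed under other choices. With 2 libraries per protein, a difference cannot pass the threshold, and these p-values do not show that the proteins are alike.

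At single sites the 2 F9 Oct4 lists did part the classes. Oct4 in F9+RA cells was at 49.3% of Sox2-only and 54.1% of Sox2KE-only sites, against 54.5% of all sites. Sites with Oct4 in untreated F9 cells and not in F9+RA cells made up 15.9% of the Sox2-only sites (435 sites), 3.74% of the Sox2KE-only sites (138) and 7.43% of the shared sites (608). Sites with Oct4 in F9+RA cells and not in untreated cells made up 3.73% (102), 10.5% (389) and 6.49% (531) in the same order. Over all sites the shares were 8.60% and 6.74%. Without Sox2KE replicate B they were 14.4% and 4.31% at Sox2-only and 5.80% and 9.53% at Sox2KE-only sites. Sox2-only sites thus held more Oct4 peaks lost in F9+RA cells than gained there, and Sox2KE-only sites more gained than lost. These are 1 library per condition, and the difference between the 2 lists has no replicate check.

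The 1385 Sox2KE-only sites with a Sox17 F9+RA peak and the 2304 without one were unlike in their other peaks. With Sox17, Oct4 was at 91.8% of sites in F9+RA cells, 77.6% in F9 cells, 80.1% and 67.7% in the Sox2 line and 98.4% and 87.7% in the Sox2KE line. Without Sox17, Oct4 was at 31.5% of sites in F9+RA cells, 29.1% in F9 cells, 40.8% and 21.7% in the Sox2 line and 85.6% and 54.4% in the Sox2KE line. Much of this contrast was not particular to Sox2KE-only sites. Over all sites with a Sox17 F9+RA peak, Oct4 was at 92.7% in F9+RA cells, 86.8% in F9 cells, 91.0% and 74.0% in the Sox2 line and 93.6% and 84.5% in the Sox2KE line. Over all sites without one, it was at 42.0%, 46.4%, 74.5% and 44.9%, and 62.0% and 41.9%. Sox2KE-only sites without Sox17 were below these last shares in the F9 lists and the Sox2 line, and above them in the Sox2KE line. Chosen without Sox2KE replicate A, they had Oct4 replicate B of the Sox2 line at 33.0%, in place of 21.7%. Tagged Sox17 in ES cells had peaks at 33.0% and 12.4% of the first set and 8.38% and 3.73% of the second.

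Strength within a class moved with some of these shares and not with others. When the Sox2-only sites were put into 3 groups of 911 by mean rank, Oct4 in F9 cells was at 71.4%, 60.4% and 52.8% from the strongest to the weakest group. Sox17 F9+RA was at 3.84%, 2.96% and 2.96% of them, near the backgrounds of 2.58%, 2.91% and 2.20%. In Sox2KE-only sites (1230, 1229 and 1230 sites), Oct4 in F9 cells was at 40.5%, 52.0% and 49.5% and Sox17 F9+RA at 38.9%, 39.8% and 34.0%. Low Sox17 shares at Sox2-only sites and higher ones at Sox2KE-only sites were thus found in the strongest and the weakest groups alike.

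Tagged Sox17EK and Sox17 in ES cells gave a further reading by the exchanged residue. Sox17EK carries the lysine, and its replicates A and B had peaks at 61.5% and 45.6% of Sox2-only sites, 20.4% and 12.1% of Sox2KE-only sites and 59.0% and 44.2% of shared sites. Their shares over all sites were 36.2% and 25.3%. Sox17 carries the glutamate, and its replicates had peaks at 7.03% and 4.06% of Sox2-only, 17.6% and 6.99% of Sox2KE-only and 38.1% and 24.5% of shared sites. Over all sites they had 18.2% and 9.55%. Backgrounds of Sox17 replicates A and B were 1.17% and 0.659% at Sox2-only and 2.60% and 1.23% at the wider Sox2KE-only sites. The shares were 6 and 6.17 times background at Sox2-only and 6.77 and 5.67 times at Sox2KE-only sites. Set against background, the 2 Sox17 replicates thus differed in direction between these classes. Sox17EK was thus above its level over all sites at Sox2-only sites in both libraries, while Sox17 in ES cells was below its level over all sites at Sox2-only sites and close to or below it at Sox2KE-only sites. Without Sox2KE replicate B, Sox17 was at 11.2% and 6.69% of Sox2-only sites and 11.6% and 4.73% of Sox2KE-only sites, so Sox17 replicate B was then lower at Sox2KE-only than at Sox2-only sites. Sox17EK replicate B was at 7.81% of Sox2KE-only sites. Without Sox2 replicate B, Sox17 replicate B was at 2.64% of Sox2-only sites. The Sox17 lists are short, at 10301 and 5836 peaks, which lowers every share.

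Sites bound by both proteins still differed in rank. Over the 8179 shared sites, Spearman's rho of the ranks was 0.76 between the Sox2 replicates, 0.68 between the Sox2KE replicates and 0.36 to 0.49 between the proteins. These describe ranks across sites of the same 4 libraries. Both Sox2 ranks were better than both Sox2KE ranks at 2046 sites (25%), the reverse held at 2500 (30.6%), and the ranks overlapped at 3633 (44.4%). The median difference in rank was 2223 places between the Sox2 replicates, 2650 between the Sox2KE replicates, and 3295.5 to 4270 over the 4 pairs of different proteins.

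The rank difference at shared sites went with the same F9 lists as the presence of sites. The shared sites were ordered by mean Sox2KE rank minus mean Sox2 rank and put into 5 groups of 1635 or 1636. From the group most towards Sox2KE to the group most towards Sox2, Sox17 F9+RA peaks were at 41.7%, 38.8%, 32.2%, 27.4% and 18.3% of sites. The background fell from 7.55% to 5.04% over the same groups and the median width from 1284.5 to 982.5 bp. Oct4 of untreated F9 cells went the other way, with 60.3%, 64.3%, 70.5%, 71.6% and 74.3%. Oct4 of F9+RA cells had 62.3% and 68.5% in the first and last groups, with a highest share of 70.5% in the group before the last. With ranks taken without Sox2KE replicate B, the first and last groups had Sox17 at 32.1% and 16.4% and Oct4 of untreated F9 cells at 53.4% and 75.0%. Without Sox2KE replicate A, Sox17 went from 48.8% to 16.4%. Oct4 of untreated F9 cells was then at 67.7%, 64.6%, 70.8%, 68.2% and 71.5%, a smaller and uneven rise. Its first and last shares were 58.9% and 74.7% without Sox2 replicate A, and 59.3% and 67.5% without Sox2 replicate B. The groups were formed from the Sox2 and Sox2KE lists, and the F9 lists took no part in forming them.

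**Figure D3:**
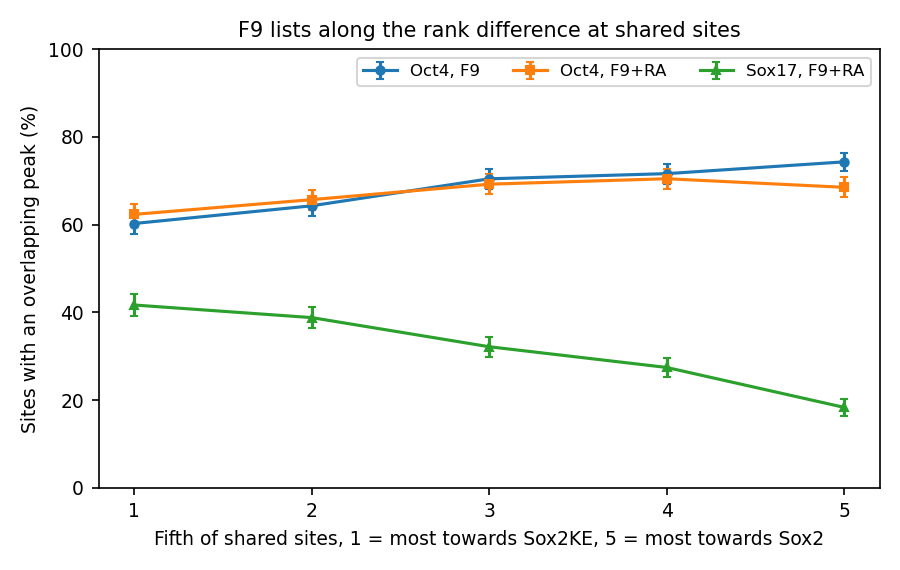
Share of shared sites (%, vertical axis) with a peak of Oct4 in F9, Oct4 in F9+RA or Sox17 in F9+RA cells, for 5 groups of 1635 or 1636 shared sites ordered by the difference in mean rank (horizontal axis; 1 is most towards Sox2KE, 5 most towards Sox2), with whiskers for exact 95% intervals. Sox17 falls from 41.7% to 18.3%, and Oct4 of untreated F9 cells rises from 60.3% to 74.3%. With ranks taken without Sox2KE replicate A (not drawn), the latter goes from 67.7% to 71.5%.

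The 10 strongest Sox2-only regions, by mean rank in the 2 Sox2 lists, show the class at single loci. Their widths ran from 505 to 1351 bp and their scores from 664.20 to 1392.25 in Sox2 replicate A and from 661.34 to 1056.02 in replicate B, with no peak in either Sox2KE list by the choice. All 10 had Oct4 peaks in F9 cells, in the Sox17 line and in both libraries of the Sox17EK and of the Sox2 line, and 9 had them in F9+RA cells. The Sox2KE line had Oct4 peaks at 7 of them in replicate A (scores 52.35 to 266.42) and 3 in replicate B (78.26 to 160.43). No region of the 10 had a Sox17 F9+RA peak, and all 10 had Sox17EK peaks in both ES libraries. Over all Sox2-only sites, Oct4 of F9 cells was at 61.5% and Sox17EK at 61.5% and 45.6%, so the class as a whole had them less often.

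The strongest of them, chr14:67381045-67382093 (mm9), scored 1323.70 and 1056.02 in Sox2 replicates A and B. Oct4 of the Sox2 line scored 3100 and 2405.97 there, that of the Sox17EK line 1986.06 and 1336.90, that of the Sox17 line 1333.03 and that of F9 cells 132.27, and no peak was listed in the Sox2KE line or in F9+RA cells. Oct4 was therefore listed in each ES line except the one with Sox2KE. At chr8:84416815-84418007 the Sox2 scores were 1392.25 and 802.44. Oct4 scored 3100 and 917.04 in the Sox2 line and 69.76 in replicate A alone of the Sox2KE line, and it scored 2321.20 in F9 and 103.91 in F9+RA cells. The region chr4:29018195-29019545 had Sox2 scores of 1112.76 and 797.05, Oct4 scores of 2599.00 in F9 and 715.90 in F9+RA cells, and no Oct4 peak in the Sox2KE line. Scores of different lists depend on depth, so they show where a list has a strong or a weak peak and not a ratio between lists.

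The 10 strongest Sox2KE-only regions had the converse Oct4 pattern in the ES lines. Their scores ran from 471.82 to 826.89 in Sox2KE replicate A and from 1170.40 to 2994.43 in replicate B, and their widths from 840 to 2319 bp. All 10 had Oct4 in both libraries of the Sox2KE line (172.43 to 1946.93 in replicate A, 130.34 to 596.18 in replicate B). In the Sox2 line, 4 had Oct4 in replicate A (73.71 to 159.84) and 0 in replicate B. Oct4 of F9 cells was at 1 region and Oct4 of F9+RA cells at 7. The same 7 had a Sox17 F9+RA peak, and 6 of them had no Oct4 peak in untreated F9 cells. The class as a whole was unlike these regions. Oct4 of F9 cells was at 47.3% of all Sox2KE-only sites. Oct4 in F9+RA and not in untreated cells was at 10.5% of them, against 6.74% of all sites. Sox17EK in ES cells was at none of the 10.

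At chr5:120029304-120030898 the Sox2KE scores were 718.78 and 1896.61, and Oct4 scored 1946.93 and 496.42 in the Sox2KE line and 85.40 in replicate A of the Sox2 line. Oct4 scored 282.43 in F9 cells and 2245.72 in F9+RA cells there, and Sox17 F9+RA scored 1375.05. The region chr3:121271940-121273359 had Sox2KE scores of 518.31 and 2994.43, no Oct4 peak in the Sox2 line or F9 cells, and F9+RA scores of 611.77 for Oct4 and 899.11 for Sox17. Both regions hold peaks of the retinoic acid-treated cells. Other strong regions did not. At chr1:39771894-39774212 (655.02 and 1690.01) Oct4 scored 837.01 and 304.58 in the Sox2KE line, and no other list had a peak. At chr14:30668098-30669321 (615.97 and 2279.06) Oct4 scored 1428.93 and 362.75 in the Sox2KE line and 100.39 in replicate A of the Sox2 line, again with no other peak.

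**Figure D4:**
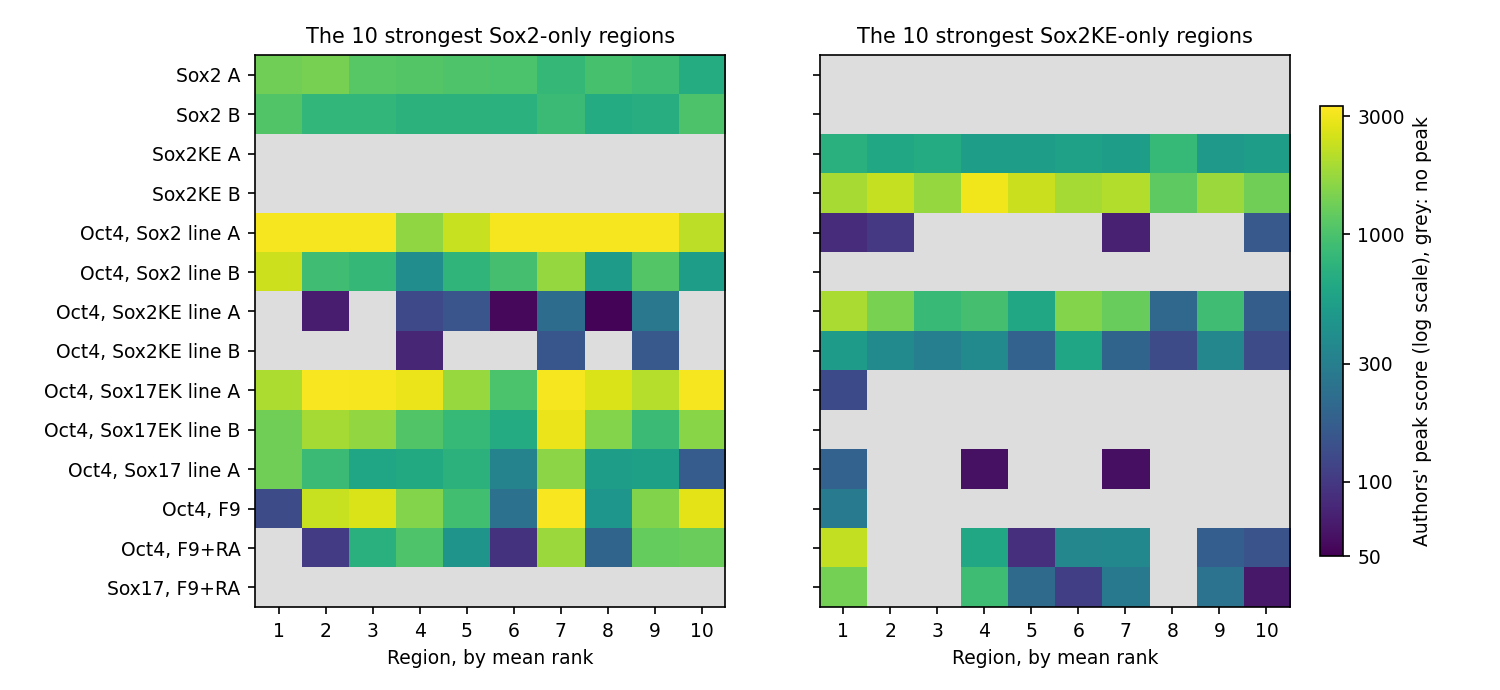
Authors' peak scores (colour, log scale) of the 10 strongest Sox2-only and the 10 strongest Sox2KE-only regions, ordered by mean rank (horizontal axis), in the Sox2, Sox2KE, Oct4 and F9 lists (rows); grey means that no peak was listed, and colours of different rows depend on depth. Oct4 of the Sox2KE line is listed at 7 and 3 of the Sox2-only regions and at all 10 Sox2KE-only regions, and Sox17 F9+RA at 0 and 7. Over all sites of these classes, Sox17 F9+RA is at 3.26% and 37.5%.

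The 10 strongest shared regions had widths of 1191 to 6046 bp, and Oct4 was listed at all 10 in all 7 ES lists. Of these, 4 had a peak in every other list of the series. The strongest was chr1:135387271-135391365, with scores of 3191.12 and 3100 for Sox2 and 3100 and 3100 for Sox2KE. The score of 3100 recurs at the top of most lists and cannot rank the regions that share it. The widest, chr17:39979837-39985882, had a peak in all 18 lists, with 3100 in each of the 15 ES lists. The same score was thus listed whatever protein was pulled down. The mock libraries were not analysed, so whether this signal is binding of the listed proteins was not tested.

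Regions that both proteins bound with very different ranks were found in both directions. The shared region most shifted towards Sox2, chr11:16244964-16246297, scored 1262.01 and 948.03 in the Sox2 lists (ranks 148 and 177) and 71.47 and 231.09 in the Sox2KE lists (ranks 22478 and 22116). In the Sox2 line Oct4 scored 3100 and 1080.36 there, against 198.57 and 172.71 in the Sox2KE line, and Sox17EK scored 738.29 and 470.52. The region most shifted towards Sox2KE, chr13:37893449-37895233, scored 64.54 and 54.13 in the Sox2 lists and 310.95 and 1405.39 in the Sox2KE lists. Oct4 scored 1230.92 and 254.99 there in the Sox2KE line and 172.97 in replicate A of the Sox2 line, and no other list had a peak. Of the 5 regions most shifted towards Sox2, 0 had a Sox17 F9+RA peak and 5 had Oct4 in F9 cells. Of the 5 most shifted towards Sox2KE, 1 had a Sox17 F9+RA peak and 2 had Oct4 in F9 cells. Over all shared sites these shares were 31.7% and 68.2%, and sets of 5 regions are too small to be set against them. The regions are named by position in build mm9, because the gene tables used here belong to another build.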

How the data were processed

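Peak lists of 4 libraries of V5 immunoprecipitation were compared, with 14 other lists as annotation. The 2 mock libraries were not analysed here. Each deposited list has chromosome, start, end, a peak name with the MACS prefix and a score. The score is the authors' own number per peak, with no stated scale, and served to rank peaks within a list. Starts and ends are the authors' deposited positions in bp. The submitters' processing notes name build mm9. Starts were read as counting from 0, and 1 was added for print. No aligner, caller setting or control library is stated: these were not given in the sources used. Read depth was unknown.

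The 23924 strongest peaks of each list were compared, with a match at an overlap of 1 bp. Sites are merged intervals of these peaks, and the 10 strongest regions of each class and the 5 most shifted shared regions in each direction were eligible to be named. Library shares were tested by exact two-sided permutation over the 4 libraries, with Benjamini-Hochberg adjustment over 3 tests. Since separate cultures are not stated, the p-values cover a spread between samples that may be technical. Intervals are Clopper-Pearson (95%). The groups, members and rules were chosen with earlier results of these data known. The 4 differences between site classes in the closing section, and the site patterns with each library left out, were added after seeing the data. The matching was tested on simulated lists. Alternatives tried were midpoints within 200 bp, the 5000 strongest peaks, whole lists, a score of at least 100, absence from the strongest peaks only, annotation lists of equal length, each library left out and a replicate block. Gene lists, motifs and sequences were not used here, since no mm9 genome was at hand. Versions were Python 3.11.15, SciPy 1.17.1, NumPy 2.4.6, pandas 2.3.3 and matplotlib 3.10.9.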

Additional observations from a re-analysis of the deposited data

How the results depend on the processing

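The lower Sox17 F9+RA share of Sox2 libraries kept its direction under all 10 alternatives run (differences of -21.1 to -4.99 percentage points, Sox2 minus Sox2KE), and the counts of sites moved with the length of the lists. The replicate block is among the 10, and it cannot change a difference of means. The other differences between proteins did not hold one direction. The Oct4 F9 share differed by 0.44 points, by -0.16 with annotation lists of equal length, 10.4 with the 5000 strongest peaks, 10.02 with whole lists, and by -5.25 to 6.14 with each library left out. The Oct4 F9+RA share differed by -5.38 points, by 0.11 with midpoints within 200 bp, 4.20 with the 5000 strongest peaks and 4.98 with whole lists, and by -11.8 to 1.05 with each library left out. The gap between replicate and cross-protein overlap (16.9) was 23.8 with the 5000 strongest peaks, 13.8 with whole lists, 21.3 with a score of at least 100, and 13.9 to 18.6 with each library left out. Sox2-only sites numbered 260 with the 5000 strongest peaks, 1567 with a score of at least 100, 5020 with absence from the strongest peaks only and 2996 to 5565 with each library left out. Sox2KE-only sites numbered 118 with the 5000 strongest peaks, 10521 with whole lists, 1888 with a score of at least 100 and 4934 to 9186 with each library left out. Shared sites numbered 1564 with the 5000 strongest peaks and 3664 with a score of at least 100. The cause of these shifts was not tested beyond the number of peaks and libraries that each alternative leaves.

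The 4 differences between classes were added after seeing the data and kept their sign throughout. The Sox17 F9+RA share of Sox2KE-only minus Sox2-only sites (34.3 points) was 20.5 with midpoints, 30.4 with the 5000 strongest peaks, 22.6 with whole lists, 31.4 with absence from the strongest peaks only and 17.1 to 43.2 with each library left out. The Oct4 share at Sox2-only sites, Sox2 line minus Sox2KE line (68.5), was 53.8 with midpoints, 70.0 with the 5000 strongest peaks, 58.1 with a score of at least 100, 52.5 with absence from the strongest peaks only and 52.3 to 65.8 with each library left out. The same difference at Sox2KE-only sites (-31.4) was -70.8 with the 5000 strongest peaks, -21.6 with whole lists, -36.4 with a score of at least 100 and -27.7 to -19.8 with each library left out. The Oct4 F9+RA minus F9 share, Sox2KE-only minus Sox2-only sites (19.0), was 12.3 with midpoints, 34.2 with the 5000 strongest peaks and 13.9 to 16.3 with each library left out.

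With the replicate block (A minus A, B minus B) the 3 differences were unchanged by construction, the Sox17 F9+RA one at -14.3, and the exact sign-flip p was 1, 0.5 and 0.5. Replicate A lay below replicate B in both proteins for all 3 shares, but with 2 pairs the letters show no pairing beyond the shared letter. Leaving out a library leaves 1 sample in its group. Which library moved a value most differed between results: Sox2-only sites moved most without Sox2 replicate B (5565) and Sox2KE-only sites most without Sox2KE replicate A (9186). Read depth was unknown, so what it limits cannot be given.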

Other observations

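Sites of the 2 proteins were spread unequally over the X chromosome. Of the 2733 Sox2-only sites, 74 lay there (2.71%), against 21 of the 3689 Sox2KE-only sites (0.569%), 98 of the 8179 shared sites (1.20%) and 1.62% of all sites. The Sox2KE-only share depended on the choice of peaks and libraries. It was 1.42% with whole lists (Sox2-only 2.67%, all sites 1.69%) and 1.29% without Sox2KE replicate B. Of the 23924 strongest peaks, 455 and 406 lay on chromosome X in Sox2 replicates A and B (1.90% and 1.70%), and 341 and 213 in Sox2KE replicates A and B (1.43% and 0.890%). The libraries of the 2 proteins did not overlap there, as on 15 of the 20 chromosomes (Sox2 above on 6, below on 9). The ratio of the mean share of Sox2 to that of Sox2KE was 1.55 on X and 0.90 to 1.09 on the other 19. Sox2KE replicate B was lowest on X.

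Sites of a class lay near sites of the same class. Within 10 kb, 7.32% of Sox2-only sites had another Sox2-only site and 2.96% a Sox2KE-only site. For Sox2KE-only sites the shares were 10.7% with another Sox2KE-only site and 2.28% with a Sox2-only site. A shared site lay within 10 kb of 10.6% of Sox2-only, 16.8% of Sox2KE-only and, counting another shared site, 23.5% of shared sites. Median distances from Sox2-only sites were 224 kb to their own class, 243 kb to Sox2KE-only and 99.9 kb to shared sites. From Sox2KE-only sites they were 99.2 kb to their own class, 259 kb to Sox2-only and 53.7 kb to shared sites. The classes differ in number of sites, and no expected share was computed. Sites of a class are therefore not independent units.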
